A study of Mus musculus with 8 samples.

Results

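Chromosome 5 of 8 mouse liver tumors is described here from array comparative genomic hybridization, a method that hybridizes DNA of a tumor and DNA of a reference, each with its own dye, to one set of probes. Its members are all probes that the array's design places on chromosome 5 of the mm9 build, apart from control spots. They number 10174 of 170305 different probes, or 5.97%, and run from base 3247009 to base 152519030 at a median spacing of 10.69 kb. The largest stretch without a probe was 2.10 Mb long, at 5:94154527-96258397. The tumors came from 8 male FAH-/- mice, 1 tumor each, that had received 2.5% of the normal NTBC dose for 6 to 12 months, the normal dose being 7.5 mg/L in the drinking water. The reference on every array was the same pool, made of liver DNA of 6 FAH+/+ littermates, also male. The labels form 1 group, and the tumors are called 1 to 8 in the order of deposition. Normal liver of a tumor-bearing mouse is not among the samples, so changes present before the tumor and changes of the tumor cannot be told apart.

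Tyrosine breakdown ends with fumarylacetoacetate hydrolase, the product of Fah, and mice without this enzyme accumulate toxic products that injure hepatocytes. NTBC (nitisinone) blocks an earlier step, the enzyme 4-hydroxyphenylpyruvate dioxygenase encoded by Hpd, so that these products are not formed. In aneuploid tumors a chromosome can be gained or lost whole, or be broken so that only a stretch changes. A change that runs to the chromosome's end has 1 edge within the chromosome, and an interstitial change has an edge on each side.

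The log2 ratio of tumor over reference is 0 where a tumor has its commonest autosomal level, which was set to 0 on each array. For a chromosome present in 2 copies, 1 copy more in every cell would ideally read 0.58 and 1 copy fewer would read -1. A stretch was called gained or lost from a log2 ratio of 0.2 in size. Probe by probe, the 8 arrays shared a pattern of high and low ratios, so each level is given on an uncorrected scale and on a scale from which the pattern of the other 7 arrays was subtracted. On chromosome 5 the noise between neighbouring probes was 0.62 to 0.66 in tumors 1 to 6, 0.39 in tumor 7 and 0.38 in tumor 8 on the uncorrected scale, and 0.15 to 0.23 after subtraction. Between 97.3% and 99.98% of the chromosome's spots on each array were well above background in both channels. Tumor signals were 4.30 to 6.66 times the local background and reference signals 4.38 to 11.7 times, and the number of arrays limits the precision. A standard error (SE) over probes covers only the noise between probes, since each tumor was measured once.

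Along chromosome 5, tumor 1 carried a gain that reached the last probe and tumor 5 carried an interstitial loss. Tumor 4 had a shallow raised stretch nested in the end that tumor 1 gained. Tumor 8 was low along most of the chromosome, tumor 7 was uneven, and no segment was called in tumors 2, 3, 4 and 6.

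**Figure D1:**
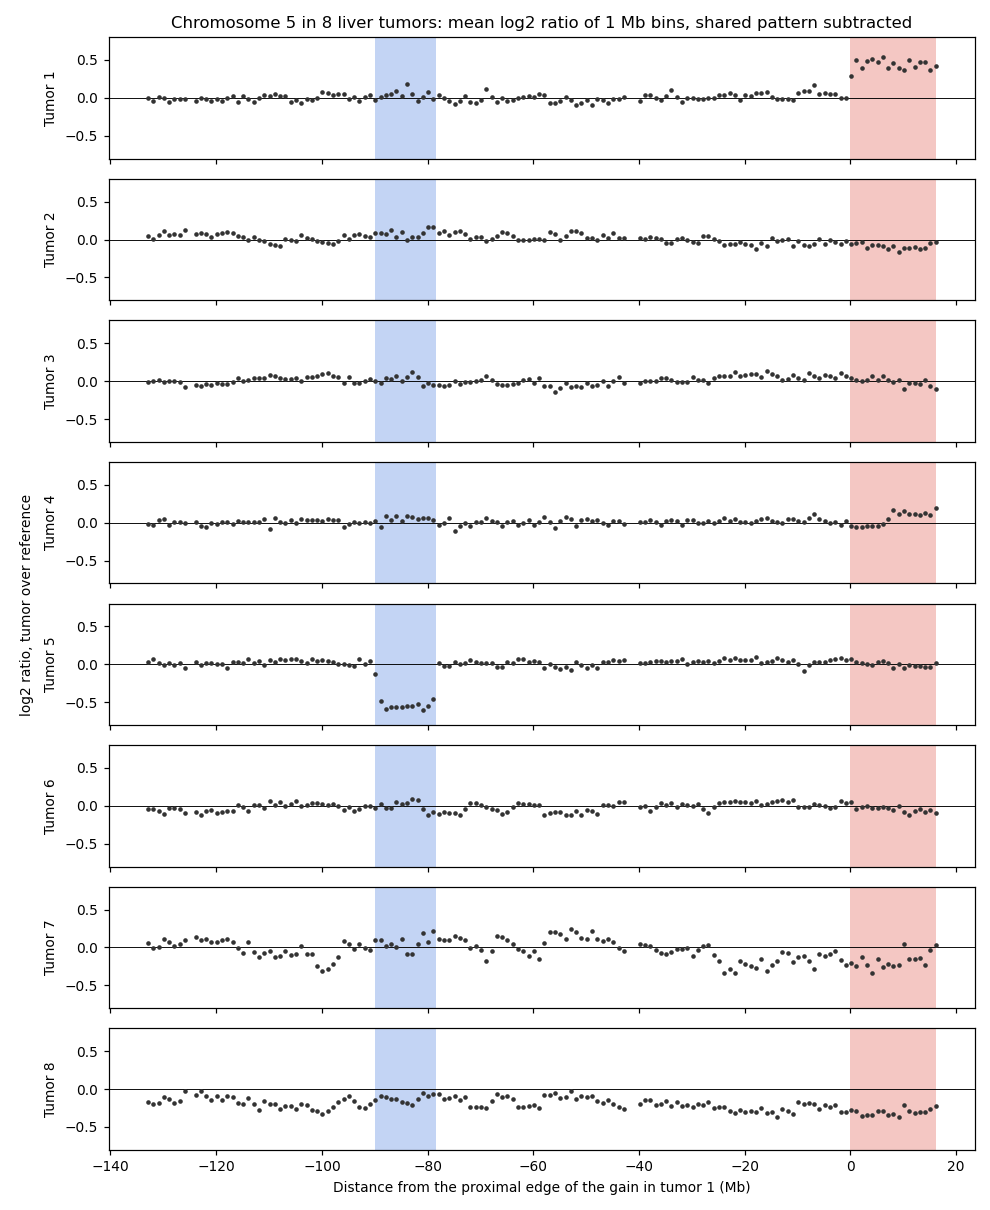
Mean log2 ratio of tumor over reference in 1 Mb bins of chromosome 5 (points), with the shared pattern subtracted, in tumors 1 to 8 from top to bottom. The horizontal axis is the distance in Mb from the proximal edge of tumor 1's gain; the red band is the stretch gained in tumor 1 and the blue band the stretch lost in tumor 5. Tumor 1 lies at 0.37 to 0.53 in the full bins of the red band, tumor 5 at -0.60 to -0.49 in those of the blue band, and tumor 8 lies below 0 along the whole chromosome.

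The distal gain of tumor 1 covered 5:136387909-152519030, which is 16.1 Mb and 1320 probes. On the uncorrected scale the stretch read 0.46 in tumor 1 (SE 0.020 over probes), -0.027 in tumor 2, 0.029 in tumor 3 and 0.081 in tumor 4. It read 0.030 in tumor 5, 0.013 in tumor 6, -0.16 in tumor 7 and -0.29 in tumor 8. Tumor 1 stood above all other tumors, the next being tumor 4, and tumor 8 was past the loss threshold in the same stretch. After subtraction of the pattern the values were 0.45 (SE 0.0066) in tumor 1 and -0.31 to 0.046 in the other 7 tumors. Because the stretch had been picked with earlier results of these data known, its levels carry no test. With each array centred on the density peak of its single probes instead, tumor 1 read 0.95 and 6 tumors were past the gain threshold, while differences within a tumor do not depend on the centring.

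Set against the rest of chromosome 5 in the same tumor, the stretch was 0.43 higher in tumor 1 (SE 0.022) on the uncorrected scale, and between -0.12 and 0.051 in the other 7 tumors. With the pattern subtracted, 98.6% of tumor 1's probes in the stretch lay above the median of the rest of its chromosome 5. In the other 7 tumors that share was 27.6% to 55.8%. Even-numbered and odd-numbered probes, which share no spot, gave 0.47 and 0.44 in tumor 1 on the uncorrected scale. The stretch had been bounded with both sets of probes, so their likeness is not independent support for the gain. The tumor signal itself was 0.54 higher in the stretch than in the rest of the chromosome in tumor 1 (difference of median log2 signals), against 0.0068 to 0.18 in the other tumors. The reference signal differed by 0.13 on tumor 1's array and by 0.12 to 0.18 on the others, so tumor 1's array stood apart in the tumor channel and not in the reference channel.

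The gain was present along its whole length. All 15 of the 1 Mb bins that lie wholly inside it were past 0.2 in tumor 1, from 0.26 to 0.57 on the uncorrected scale and from 0.37 to 0.53 after subtraction. The first 7.14 Mb read 0.45 and the terminal 8.98 Mb read 0.46 uncorrected, and 0.48 and 0.43 after subtraction, so the order of these parts differed between the scales. Over all of chromosome 5, tumor 1 had 19 of 147 bins gained on the uncorrected scale, where 2.68% of its 2538 bins on the autosomes and X were gained. After subtraction it had 17 of 147, where 0.827% were gained. On that scale these 17 made up most of the 21 gained bins that tumor 1 had in all. Uncorrected, chromosome 5 held 19 of its 68 gained bins. Lost bins of tumor 1 numbered 448 after subtraction, or 17.7%, and 0 of those lay on chromosome 5. With the pattern kept, 2 of 147 were lost, beside 19.5% over the autosomes and X.

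The edge of the gain fell between a probe ending at base 136378060 and a probe starting at base 136387909, 9.85 kb apart. Positions that described the data almost as well spanned 16.1 kb, at 5:136371822-136387909. The 10 probes before the edge averaged -0.045 and the 10 after it 0.51. Over all probes used to place the edge, the step was 0.45. With the pattern kept, the best position moved to base 136469070 and the interval widened to 396 kb, at 5:136298341-136694541, which includes the first one.

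**Figure D2:**
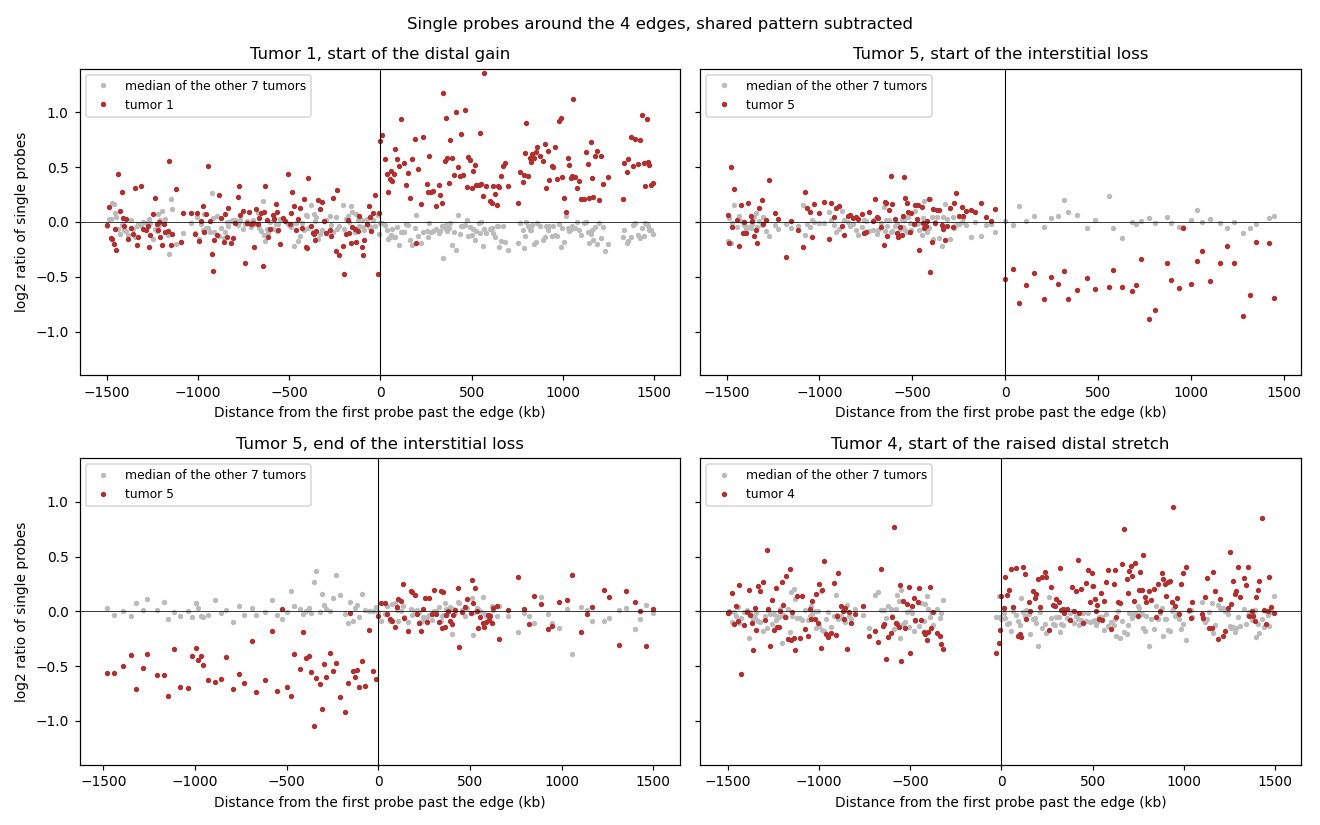
Log2 ratios of single probes within 1.5 Mb of the 4 edges, with the shared pattern subtracted, against the distance in kb from the first probe past the edge. Red points are the tumor with the edge and grey points the median of the other 7 tumors at the same probes. The 10 probes on either side of the edge average -0.045 and 0.51 in tumor 1. They average 0.089 and -0.57 at the start of the loss in tumor 5, and -0.18 and 0.12 in tumor 4. The edges were picked on these same probes, so averages next to them can overstate a step. Over all probes used to place each edge, the steps are 0.45 in tumor 1, -0.59 in tumor 5 and 0.18 in tumor 4.

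Tumor 4 stepped up within the same end of the chromosome, 7.14 Mb further on. Its raised stretch covered 5:143535922-152519030, which is 8.98 Mb and 711 probes to the last one. It averaged 0.18 (SE 0.027 over probes) on the uncorrected scale and 0.13 (SE 0.0076) after subtraction, and so stayed under the threshold for a gain on both. Against the rest of its chromosome 5 it was 0.15 and 0.12 higher, respectively. After subtraction, 73.8% of tumor 4's probes there lay above the median of the rest of its chromosome. The 8 full bins ran from 0.099 to 0.17 after subtraction, all above 0 and none past 0.2. On the uncorrected scale 3 of the 8 were past 0.2, while 10.5% of tumor 4's bins over the autosomes and X were gained.

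In this terminal stretch tumor 1 read 0.46 and the remaining 6 tumors read -0.27 to 0.042 on the uncorrected scale. In the first 7.14 Mb of tumor 1's gain, tumor 4 read -0.035 uncorrected and -0.048 after subtraction, so the 2 raised stretches overlapped only from tumor 4's edge on. Tumors 7 and 8 read -0.21 and -0.31 there, past the loss threshold. The tumor signal of tumor 4 was 0.21 higher in the terminal stretch than in the rest of the chromosome, against 0.0048 to 0.12 in tumors other than 1 and 4. The reference signal was 0.081 higher on its array and 0.064 to 0.098 higher on the others. The edge of tumor 4 was placed less precisely than that of tumor 1. Its interval was 134 kb long, at 5:143521887-143655398. With the pattern kept it was 1449 kb long, at 5:143577598-145026190, with the best position at base 144269318. That longer interval overlaps the first but leaves out base 143535922, the best position after subtraction. With spots not well above background left out, the interval was 45.7 kb long.

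**Figure D3:**
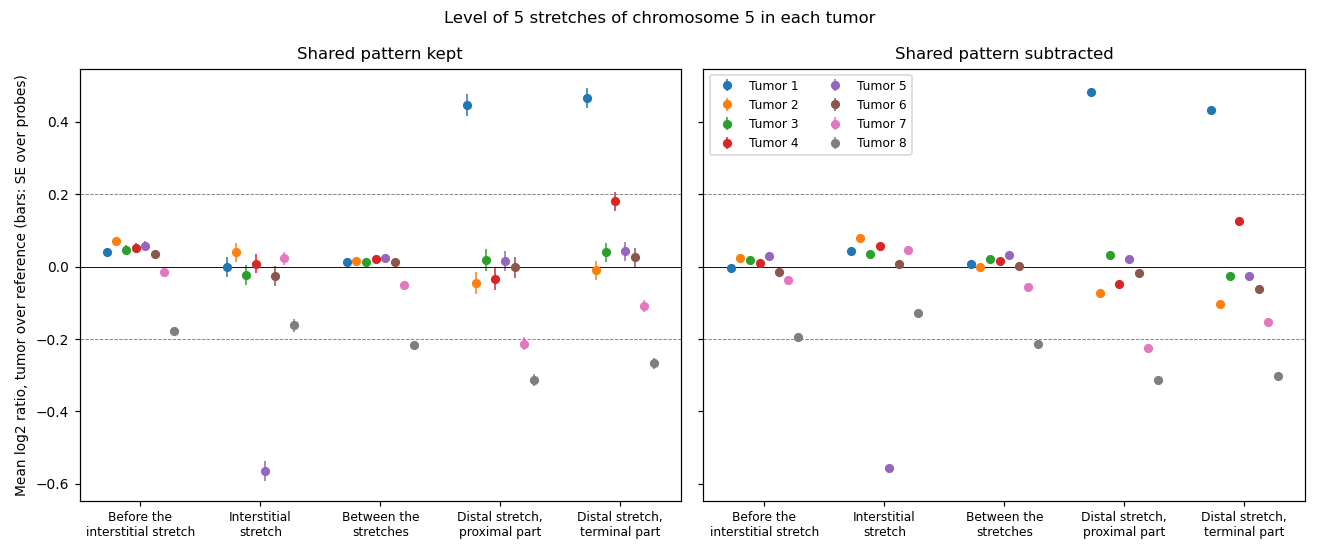
Mean log2 ratio of 5 stretches of chromosome 5 (horizontal axis, in order along the chromosome) in each of the 8 tumors (colours), with the shared pattern kept on the left and subtracted on the right. Bars are the SE over probes, hidden by the points where small, and dashed lines mark the thresholds of 0.2 and -0.2. Tumor 1 is alone above the upper line in both distal stretches, tumor 5 alone below the lower line in the interstitial stretch, and tumor 8 is lowest in the stretches before and between them.

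The interstitial loss of tumor 5 covered 5:46497585-57882170, which is 11.4 Mb and 547 probes. On the uncorrected scale the stretch read -0.0013 in tumor 1, 0.039 in tumor 2, -0.023 in tumor 3 and 0.0084 in tumor 4. It read -0.56 in tumor 5 (SE 0.027), -0.027 in tumor 6, 0.023 in tumor 7 and -0.16 in tumor 8. Tumor 5 lay far below the others, and tumor 8, the next lowest, was not past the threshold. After subtraction tumor 5 read -0.55 (SE 0.0081) and the other 7 tumors -0.13 to 0.079. These levels, too, are a description without a test. Centred on the density peak of single probes, tumor 5 read -0.12 and was no longer past the threshold.

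Against the rest of its chromosome 5, the stretch was -0.60 in tumor 5 (SE 0.028) on the uncorrected scale, and between -0.084 and 0.077 in the other 7 tumors. After subtraction, 0.366% of tumor 5's probes in the stretch lay above the median of the rest of its chromosome, and 52.8% to 69.8% did in the other tumors. The difference in median log2 tumor signal was -0.63 in tumor 5 and -0.081 to 0.046 in the others. The difference in the reference signal was -0.065 on tumor 5's array and -0.046 to 0.0022 on the other arrays, a gap far smaller than that in the tumor signal. Even-numbered and odd-numbered probes gave -0.56 and -0.57 in tumor 5 on the uncorrected scale, within bounds that had been placed with both sets.

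All 10 full bins of the stretch were lost in tumor 5, from -0.73 to -0.43 uncorrected and from -0.60 to -0.49 after subtraction. Tumor 5 had 13 of 147 bins of chromosome 5 lost on the uncorrected scale, where 1.85% of its bins on the autosomes and X were lost. After subtraction it had 11 of 147, where 0.473% were lost. After subtraction the loss on chromosome 5 thus held 11 of the 12 lost bins of this tumor. Uncorrected, chromosome 5 held 13 of its 47 lost bins. Gained bins of tumor 5 numbered 406 after subtraction, or 16.0%, with 0 of them on chromosome 5. On the uncorrected scale 3 of 147 were gained, beside 17.3% over the autosomes and X.

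Both edges were placed to within a gap between neighbouring probes. The proximal edge fell between bases 46443875 and 46497585, 53.7 kb apart in a stretch with widely spaced probes, and the distal edge between bases 57882170 and 57895821, 13.7 kb apart. The 10 probes on either side averaged 0.089 and -0.57 at the proximal edge, and -0.48 and 0.0029 at the distal edge. Over all probes used to place each edge, the steps were -0.59 and 0.57, respectively. With the pattern kept, the best positions were bases 47126815 and 57971696, with intervals of 759 kb and 137 kb that included those just given. Tumor 5 returned to 0.031 after subtraction in the stretch between the loss and the start of tumor 1's gain, and read -0.0037 in the distal stretch.

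How deep these steps were can be read against whole chromosomes of the same tumor, on the linear scale and with the pattern subtracted. In tumor 1 the distal stretch had a ratio of 1.37, and the 3 lowest chromosomes, 12, 4 and 13, had ratios of 0.62, 0.63 and 0.63. With the centring used, the gain thus lay about as far above 1 as those losses lay below it. Another centring moves all log2 levels of an array alike, so such likenesses in size depend on it. With the density peak of single probes as 0, the distal stretch read a log2 ratio of 0.95. In tumor 5 the interstitial stretch had a ratio of 0.68. Chromosomes 14 and 17 of the same tumor had 1.31 and 1.29, and chromosomes 15 and 16 had 1.61 and 1.64. With the centring used, the loss was near in size to the smaller pair of gains.

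In tumor 4 the terminal stretch had a ratio of 1.09. Its chromosomes 1 and 16 both read 1.10, and its highest and lowest chromosomes, 15 and 12, read 1.24 and 0.77. With the centring used, the shallow step of tumor 4 was therefore about the size of other small steps of that tumor. The share of tumor cells in each sample and the number of copies per cell were not measured, and a change in part of the cells and a smaller change in all of them cannot be told apart.

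**Figure D4:**
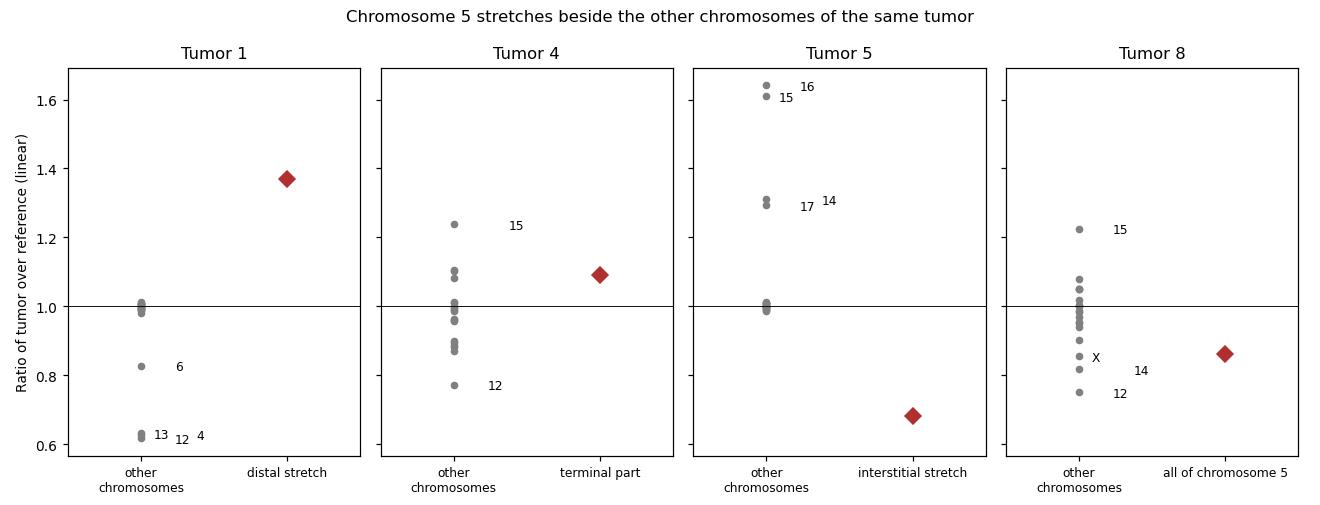
Ratio of tumor over reference on a linear axis, with the shared pattern subtracted, for the chromosome 5 stretch named under each panel (red diamond) and for the means of the other 18 autosomes and X (grey points, named where the log2 ratio was 0.2 or more in size) in tumors 1, 4, 5 and 8. The diamond is at 1.37 in tumor 1, 1.09 in tumor 4, 0.68 in tumor 5 and 0.86 in tumor 8.

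Tumor 8 was low along most of the chromosome, with bins from -0.37 to -0.025 after subtraction and from -0.45 to 0.068 uncorrected. Its mean over chromosome 5 was -0.21 uncorrected and -0.22 after subtraction, the 4th lowest of its 20 chromosomes after chromosomes 12, 14 and X. It read -0.18 before the interstitial stretch and -0.22 between the 2 stretches on the uncorrected scale, and -0.29 in the distal stretch. The other 7 tumors read -0.014 to 0.070 before the interstitial stretch and -0.051 to 0.023 between the stretches. Of the chromosome's 147 bins, 76 were lost in tumor 8 on the uncorrected scale, where 18.8% of its bins over the autosomes and X were lost. After subtraction 73 were lost, beside 16.0% over the autosomes and X. In linear terms chromosome 5 read 0.86 in tumor 8, beside 0.75 for chromosome 12 and 0.82 for chromosome 14.

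In tumors 2, 3, 4 and 6 the number of bins past the threshold depended on the scale. After subtraction 0 of 147 bins were gained and 0 were lost in each of the 4. Over the autosomes and X, tumor 2 had 0.985% of its bins gained and 1.85% lost, tumor 3 had 3.62% and 30.1%, tumor 4 had 5.52% and 11.3%, and tumor 6 had 3.98% and 35.9%. Uncorrected, the bins gained and lost on chromosome 5 numbered 10 and 3 in tumor 2, beside 5.87% and 5.40% over the autosomes and X, and 1 and 2 in tumor 3, beside 4.53% and 28.7%. They numbered 7 and 3 in tumor 4, beside 10.5% and 14.7%, and 3 and 3 in tumor 6, beside 5.52% and 36.2%. After subtraction the bins on chromosome 5 ran from -0.17 to 0.17 in tumor 2, from -0.15 to 0.14 in tumor 3, from -0.11 to 0.19 in tumor 4 and from -0.13 to 0.094 in tumor 6. The distal stretch of tumor 2 was -0.062 against the rest of its chromosome uncorrected (SE 0.021) and -0.10 after subtraction (SE 0.0061).

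Tumor 7 was uneven. After subtraction 22 of its 147 bins were lost, beside 5.63% of its bins over the autosomes and X, and 6 were gained, beside 1.30%. On the uncorrected scale 19 were lost, beside 6.66%, but only 2 were gained, beside 4.06%, so the gained share was above that of the autosomes and X after subtraction and below it before. Its chromosome mean was -0.061 after subtraction, with bins from -0.34 to 0.24.

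Segmentation of the pattern-subtracted profiles called 16 further segments: 1 in tumor 1, 9 in tumor 7 and 6 in tumor 8. Those of tumor 7 were losses of 0.51 to 10.98 Mb with means of -0.35 to -0.20, and those of tumor 8 were losses of 0.16 to 15.3 Mb with means of -0.56 to -0.26. The count depended on the method: 4 further segments were called with the pattern kept and 6 with penalised least squares.

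Several losses of tumors 7 and 8 overlapped. Both tumors had a segment starting at base 23799662, which ended at base 24612979 in tumor 7 and at base 24731810 in tumor 8, with means of -0.25 and -0.33. In tumor 8 neither penalised least squares nor the pattern-kept profile had an edge there. In tumor 7 both called a loss there, starting at bases 23799662 and 23824703. The longest loss of tumor 7, at 5:110452554-121433517, averaged -0.25 there and -0.28 in tumor 8. In the other tumors that stretch read -0.052 to 0.086. The deepest segment of tumor 7, at 5:35349589-37710648, averaged -0.35 there and -0.34 in tumor 8, against -0.048 to 0.11 elsewhere. These levels of tumor 8 stand beside its mean of -0.22 over all of chromosome 5 after subtraction. At tumor 7's deepest segment the main segmentation of tumor 8 had no edge, only an uncalled segment at 5:24746787-111526297 of -0.19. Penalised least squares called a loss in tumor 8 at 5:35349589-37763147, of -0.34.

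The longest segments of tumor 8 were 5:111532980-122564855 at -0.29, 5:122756587-138053790 at -0.26 and 5:138235854-152519030 at -0.31. They were separated by 2 short, deeper segments of 20 probes each, the fewest a segment could have. Neither was called by penalised least squares or with the pattern kept, each of which gave 1 long loss there. The first, 5:122579130-122750212, averaged -0.55 in tumor 8, -0.34 in tumor 7 and -0.024 to 0.093 in tumors 1 to 6. The second, 5:138059679-138218780, averaged -0.56 in tumor 8 and -0.36 in tumor 7, while tumor 1, where it lies in the distal gain, read 0.52. At the first of these, the uncorrected values of tumors 1 to 6 were 0.52 to 0.61 and those of tumors 7 and 8 were -0.042 and -0.24, so these probes have a high ratio in the pattern that most arrays share.

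Across the 147 bins, the pattern-subtracted profiles of tumors 7 and 8 had a Pearson correlation of 0.85 and those of tumors 2 and 7 of 0.79. This is a description over bins that share a probe design and a reference pool, and no correlation is given for the other pairs. No segment was called in tumor 2, so likeness to tumor 7 was not particular to a tumor with called losses. In tumor 7's lowest bin, at -0.34, tumors 2 and 8 read -0.059 and -0.32, and tumors 1 and 3 to 6 read 0.037 to 0.13. In its highest bin, at 0.24, tumors 2 and 8 read 0.12 and -0.031, and tumors 1 and 3 to 6 read -0.12 to 0.049. The shared pattern had a slope of 0.54 on the array of tumor 7 and 0.57 on that of tumor 8, against 1.01 to 1.07 on the other 6. The part of this difference in the losses that tumors 7 and 8 share was not tested.

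The additional gain of tumor 1 was at 5:52099723-52797740, which lies inside the stretch lost in tumor 5. Its 30 probes averaged 0.27 (SE 0.079) after subtraction and 0.087 with the pattern kept, and neither penalised least squares nor the pattern-kept profile called it. Tumor 5 read -0.56 at the same probes, and the other 6 tumors read -0.19 to 0.078.

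For chromosome 5 as a whole no shift common to the 8 tumors was detected, and 0 of 20 chromosomes passed the test (0.00%). Its mean log2 ratio was -0.0099 ± 0.089 (SD, n = 8), with 2 of 8 tumors below 0 (two-sided exact sign-flip permutation p = 0.883, Benjamini-Hochberg adjusted p = 0.883 over 20 chromosomes). The smallest p that 8 tumors allow is 0.00781. With the shared pattern subtracted the mean was -0.024, with 5 of 8 tumors below 0 (adjusted exact permutation p = 0.763). Without tumor 8 the uncorrected mean was 0.019, so that tumor sets the sign. The arrays were scanned on 2 slides of 4, and the mean was 0.041 in tumors 1 to 4 and -0.061 in tumors 5 to 8.

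By bins of 1 Mb, limma's treat test against a log2 size of 0.1 found 0 of 147 bins higher and 0 lower across the tumors at an adjusted p under 0.05. Over all 2538 bins 0.0394% were called higher and 0.0394% lower. On chromosome 5 itself 2 bins were higher and 5 were lower with an unadjusted p below 0.05, beside 108 and 197 of the 2538. Limma's moderated test against 0 called 6 higher and 9 lower on chromosome 5, beside 141 and 234 of the 2538. The smallest adjusted p by limma's treat was 0.0885, for the bin that starts at base 59000001. That bin held 24 probes and read -0.38 to -0.073, below 0 in 8 of 8 tumors, with a mean of -0.29 ± 0.10 (SD, n = 8). With the shared pattern subtracted, the smallest adjusted p on the chromosome by limma's treat was 0.9999.

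Genes are named by chromosome and order alone, from RefSeq's GRCm38 annotation, because gene positions on mm9 were not at hand. No gene is given a value or assigned to a stretch. Hpd, the enzyme that NTBC blocks, is on chromosome 5, the only 1 of 6 genes of tyrosine breakdown listed that is, and in RefSeq's order it comes after Slit2 and before Cux1. By background knowledge of the gene order, and not by position on mm9, the genes listed around the interstitial loss include Slit2, a secreted guidance cue, Ppargc1a, a coactivator of mitochondrial and gluconeogenic genes, and Rbpj, the DNA-binding factor of Notch signalling, and whether they lie within its edges was not tested. Toward the distal end lie, in order, Cux1, a homeobox transcription factor, Epo, the hormone erythropoietin, Mcm7, a subunit of the replicative helicase, and Pdgfa, a platelet-derived growth factor. Further along come Trrap, a scaffold of histone acetyltransferase complexes, the Cyp3a cluster of drug-metabolising cytochromes, Cdk8, a kinase of the Mediator complex, Flt3 and Flt1, receptor tyrosine kinases, and Brca2, a DNA repair protein. The arrays measured DNA, and whether any of these genes changed in expression was not measured.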

How the data were processed

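Per the labels, 1.5 µg of DNA was labelled with Cy5 (tumor) or Cy3 (reference), without a dye swap, so a dye bias at a probe does not cancel. Per the submitters' processing notes, images were extracted with Agilent Feature Extraction 10.7.3.1. Per the file headers, the processed signals that the authors deposited are intensities, background-subtracted and dye-normalized within each array. The deposited spot and background signals are intensities without these steps. The quality marks (unit other) in the deposited files are 0 or 1, and positions are on mm9. The deposited log10 ratios of red over green were not centred. The deposited value table holds them rounded, within 0.00498 on every array (column medians -0.024 to -0.0076).

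Log2 ratios of the processed signals were computed without control spots and outlier-marked spots (2 to 19 on chromosome 5 per array), averaged per probe and centred on the commonest autosomal level, the peak of a kernel density (bandwidth 0.05) of 1 Mb bin means. For the second scale, the median of the other 7 arrays, each minus its chromosome medians, was scaled by least squares on autosomes other than 5 and subtracted. Segments came from recursive circular binary segmentation on that scale (at least 20 probes, split z of 6, merging below 0.1), in Python 3.11.15 (numba 0.67.0, numpy 2.4.6, pandas 2.3.3). The edge search used up to 300 probes on each side. Bins with at least 5 probes were tested with limma 3.58.1 in R 4.3.3, intercept only. The scripts were tested on simulated data. For the segmentation these had independent noise, so uneven profiles such as that of tumor 7 were not covered. Plots used matplotlib 3.10.9.

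Regions, edges and gene lists were chosen with earlier results of these data known. Named regions are both stretches, those before and between them, and every further called segment. A call in each tumor has no replicate, and the reference is 1 pool without its own spread. The p-values weigh a mean over tumors against the spread between them, and do not test a change in a single tumor. Other settings tried were other centrings, the deposited table, normexp, quality filters, thresholds, bin sizes, slides and each tumor left out.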

Additional observations from a re-analysis of the deposited data

Results flagged for a closer look

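Dixon's criterion was applied to the 8 tumor values of the stretch before the interstitial stretch, of the stretch between the interstitial and distal stretches, and of chromosome 5 as a whole. The interstitial, distal and terminal stretches were left out, since they had been chosen and bounded by the tumors that stand apart there. In 3 of the 3 sets tumor 8 was far from the other 7, with a mean log2 ratio of -0.18 before the interstitial stretch, -0.22 between the stretches and -0.21 over the whole chromosome. Chance sets a value apart in about 1 in 20 such sets, and these sets share probes and tumors, so they are not independent.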

How the results depend on the processing

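The centring of the arrays moved most values. With each array centred on the median of its probes, the chromosome 5 mean was 0.12 (adjusted permutation p = 0.0868), and with the density peak of single probes as 0 it was 0.36 (adjusted permutation p = 0.0208), a setting at which 19 of 20 chromosomes passed. With the median over probes in place of the mean it was -0.11 (adjusted permutation p = 0.0156), and 16 of 20 chromosomes passed. Without replicate 8 it was 0.019, and leaving out each tumor in turn gave -0.022 to 0.019. On slide 1 alone it was 0.041. The level of tumor 1's distal gain was 0.67 with median centring and 0.95 with the density peak, and 4 and 6 tumors were then past the threshold. Tumor 5's loss read -0.12 with the density peak, so that 0 tumors were past the threshold, and 2 were with the median over probes or with a threshold of 0.1. With the pattern kept, the edges were at bases 136469070, 47126815, 57971696 and 144269318. Further segments numbered 4 with the pattern kept, 6 with penalised least squares, 29 at a threshold of 0.1 and 6 at 0.3. The limma count of higher bins was 12 of 147 with median centring (237 of 2538 over the autosomes and X), 137 with the density peak (2052), 6 in the test against 0 (141) and 5 of 291 with bins of 500 kb (86 of 5028), and the last 2 gave 9 (234) and 4 (111) lower bins. With the deposited table, normexp (offset 50), both quality filters and each way of subtracting the pattern, the levels of tumors 1 and 5 kept their direction and their side of the threshold. The cause of these changes was not tested beyond the construction of each setting. No paired analysis was possible because the tumors form 1 group. Each tumor has a single array, and intervals of edges wider than a gap between probes are given in the text.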
